A study of Mus musculus with 26 samples.

Results

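The loops described here are the strong contacts that stood in the WT-labelled RNA polymerase II HiChIP list and had no counterpart in the KO-labelled list. HiChIP joins DNA ends that lie close together in the nucleus and then pulls down the fragments bound by a chosen protein, so each loop is a pair of genome regions (anchors) seen together at chromatin holding RNA polymerase II. A loop was taken as strong when it had 10 or more paired-end tags, the sequenced ligation products that join its anchors. It was taken as alone when no loop of the KO-labelled list, at any tag count, had anchors that overlapped both of its anchors by at least 1 base. Of the 6577 strong loops of the WT-labelled list, 3866 (58.8%) met the rule, and the other 2711 had a partner. The loops were thus chosen by their tags and by the missing overlap, and those values are given as description, without a test.

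The groups were KO-labelled cells (genotype Klf4-KO) and WT-labelled cells (genotype WT), both of the mouse embryonic stem cell line E14, cell type NPC, taken after 12 days of neural induction. Stem cell culture before induction used serum, the cytokine LIF and the inhibitors PD0325901 (of MEK) and CHIR99021 (of GSK3). Each group had 2 RNA-seq libraries and 2 HiChIP samples, and 1 loop list named in the labels of both HiChIP samples, so the lists have no replicates. The series title names inhibition of early neural differentiation by KLF4, through the shape of chromatin in the nucleus, as the subject.

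The genotype labels of the RNA-seq libraries were opposed by the targeted gene. Klf4 had 75.0 and 70.7 CPM (counts scaled by library size) in the KO-labelled libraries, against 0 counts in both WT-labelled libraries, which is at least 752-fold higher in KO-labelled libraries when 3 counts per library are taken as the floor. The libraries and lists are therefore called by their labels only. Whether the loop lists carry the same reversal was not tested; the Klf4 start had 23 loops with 33 tags in the KO-labelled list and 9 loops with 41 tags in the WT-labelled list, and no loop described here. The counts of higher and lower markers below stand beside 37.2% higher and 35.8% lower over all 17273 genes tested. The markers for neural progenitors summed to 550.6 and 593.7 CPM in KO-labelled libraries, against 618.9 and 604.1 CPM in WT-labelled libraries. Of the 6 tested, 5 were higher and 1 lower, and Fabp7, Hes5 and Olig2 were at 0 in WT-labelled libraries. Sox2, which pluripotent cells express too, made up most of that sum, and without it the markers summed to 112.7 and 120.6 CPM in KO-labelled libraries, against 76.5 and 75.0 CPM in WT-labelled libraries. The pluripotency markers summed to 2385.3 and 2431.3 CPM in KO-labelled libraries, against 5408.5 and 5393.0 CPM in WT-labelled libraries (2 of 8 higher, 6 lower), so the data go against a plain NPC label for both. Markers of mesoderm and muscle (5 of 5 higher) summed to 160.3 to 166.7 CPM in KO-labelled libraries, against 0.83 to 0.854 CPM in WT-labelled libraries, where Actc1 was at 0. Endoderm markers (5 of 5 higher) summed to 62.6 to 64.5 CPM in KO-labelled libraries, against 1.05 to 1.34 CPM in WT-labelled libraries. Fibroblast and matrix markers (4 of 4 tested higher) summed to 252.1 to 262.0 CPM in KO-labelled libraries, against 0.686 to 0.854 CPM in WT-labelled libraries, where Bgn, Dcn and Postn were at 0. The trophoblast markers Krt8, Krt18, Cdx2, Elf5 and Gata3 (3 of 4 tested higher, 1 lower) summed to 394.3 to 397.6 CPM in KO-labelled libraries. In WT-labelled libraries they summed to 27.1 to 30.2 CPM, and Elf5 was at 0. The part of each gene in these sums is not reported here. Primed epiblast markers (5 of 5 higher) summed to 586.4 to 592.2 CPM in KO-labelled libraries, against 200.5 to 206.7 CPM in WT-labelled libraries. Neuron markers (2 of 3 tested higher, 1 lower) summed to 34.4 to 35.4 CPM in KO-labelled libraries, against 143.6 to 145.2 CPM in WT-labelled libraries, where Dcx was at 0. The part of such cell mixtures in the results below was not tested, and fewer cells of a type and less RNA per cell cannot be told apart in bulk samples.

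RNA polymerase II gathers at promoters and at active enhancers, and contacts between such sites bring transcription factors bound far away to the start of a gene. In naive embryonic stem cells, Pou5f1, Nanog, Sox2 and their partners keep one another active through clusters of enhancers, and these clusters are shut down as the cells leave pluripotency. KLF4 is a zinc finger factor of that network which binds GC-rich and CACCC-type DNA.

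Promoters of 3 genes at the 15 loops with the most tags are printed here, those of Mkrn1 and Klf9 because the loops with the most and the next most tags ended at them, and that of Pou5f1 because the gene stands at the centre of the pluripotency network. The sequences are RefSeq's for GRCm38.p6, the assembly behind mm10, run from 250 bases before the start to 50 after it, and are read 5′ to 3′ on the gene's strand. Capitals mark matches, on either strand, to GGGTGTG and GGGCGTG (KLF-type boxes), GGGCGGG (the GC box), ATTTGCAT (the octamer), CATTGTT (SOX-type), CCAAT or TATAAA. The Mkrn1 promoter is at chr6:39420320-39420619 (minus strand), that of Klf9 at chr19:23140976-23141275 (plus strand) and that of Pou5f1 at chr17:35505782-35506081 (plus strand).
Mkrn1: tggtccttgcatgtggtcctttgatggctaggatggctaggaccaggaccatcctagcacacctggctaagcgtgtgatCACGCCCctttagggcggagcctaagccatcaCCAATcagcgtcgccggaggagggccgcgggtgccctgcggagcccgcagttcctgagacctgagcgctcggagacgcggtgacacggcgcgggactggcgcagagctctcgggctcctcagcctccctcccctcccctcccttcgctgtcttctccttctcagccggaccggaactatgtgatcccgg
Klf9: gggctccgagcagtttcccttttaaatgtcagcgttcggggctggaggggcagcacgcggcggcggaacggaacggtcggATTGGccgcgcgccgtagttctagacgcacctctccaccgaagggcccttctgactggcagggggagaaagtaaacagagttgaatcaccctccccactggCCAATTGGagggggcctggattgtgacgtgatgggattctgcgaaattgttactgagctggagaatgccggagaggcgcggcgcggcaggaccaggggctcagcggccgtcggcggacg
Pou5f1: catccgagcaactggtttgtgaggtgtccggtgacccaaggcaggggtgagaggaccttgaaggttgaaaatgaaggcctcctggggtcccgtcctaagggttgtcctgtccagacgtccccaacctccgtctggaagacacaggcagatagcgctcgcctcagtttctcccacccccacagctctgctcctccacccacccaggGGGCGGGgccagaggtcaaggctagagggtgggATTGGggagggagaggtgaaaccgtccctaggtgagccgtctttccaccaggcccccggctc
The printed Mkrn1 promoter held GGGCGTG on its minus strand and 1 CCAAT, the Klf9 promoter held 3 matches to CCAAT on both strands, of which 2 overlap, and the printed Pou5f1 promoter held GGGCGGG and 1 CCAAT. Another Mkrn1 entry, at chr6:39419727-39420026, held only GGGCGGG. Another Pou5f1 entry, at chr17:35508557-35508856, held CATTGTT and CCAAT and no GC box. Among the 2015 promoters at the loops alone, 11% held GGGCGTG, against 16.5% of 1591 promoters at partnered loops only and 8.44% of all 32851 promoters in the table. GGGTGTG stood in 8.24% of promoters at the loops alone, against 9.93% of those at partnered loops only and 7.95% of all. GGGCGGG stood in 39.2%, against 44.3% and 25.6% in the same order of sets, and the median GC content was 58.0%, against 60.3% and 52.7%. The octamer stood in 1.64% of promoters at the loops alone, 1.38% of those at partnered loops only and 1.74% of all. In the same order of sets, CATTGTT stood in 2.23%, 1.57% and 3.78%. CCAAT stood in 35.9%, 37.3% and 37.4%, and TATAAA in 9.28%, 7.23% and 13.6%. A match of this kind is a description of the letters and not evidence of binding.

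The loops alone also held the miR-290 cluster, a run of microRNA genes known for their expression in embryonic stem cells. Its hairpins lie at chr7:3218626-3220841 in an anchor of 6 of the loops, which together had 169 tags and at most 47 in 1 loop. The cluster was chosen for printing after its values were seen. Of the 1005 microRNA hairpins in the RefSeq table, 51 lay inside anchors of the loops alone. Some mature sequences from the 3′ arms of the cluster are shown with the seed (bases 2 to 8) in capitals, to show which of them share it. Other members of the cluster are not printed.
mmu-miR-294-3p: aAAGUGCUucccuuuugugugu
mmu-miR-295-3p: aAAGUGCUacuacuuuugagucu
mmu-miR-291b-3p: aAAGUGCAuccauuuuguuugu
mmu-miR-290a-3p: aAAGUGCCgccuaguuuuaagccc
mmu-miR-293-3p: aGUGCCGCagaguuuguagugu
Among the printed sequences the seed AAGUGCU was shared by miR-294-3p and miR-295-3p, while the seed was AAGUGCA in miR-291b-3p, AAGUGCC in miR-290a-3p and GUGCCGC in miR-293-3p. The anchor of Mirlet7g, which encodes let-7g of the family that rises as stem cells differentiate, had 1 loop with 51 tags.

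Loops alone spanned shorter distances than strong loops with a partner and less often joined gene starts. Their median span between anchor centres was 21.8 kb (95% interval 20.5 to 22.9 kb), against 30.7 kb (29.0 to 32.5 kb) for partnered loops. Loops under 20 kb made up 47.7% of the loops alone (exact binomial 95% interval 46.1% to 49.3%), against 34.3% of partnered loops (32.6% to 36.2%). A gene start lay within 2.5 kb of both anchors in 577 loops alone (14.9%, 13.8% to 16.1%), against 1277 partnered loops (47.1%, 45.2% to 49.0%). Neither anchor held a gene start in 1346 loops alone (34.8%), against 375 partnered loops (13.8%). These intervals do not overlap, but they cover counting error only, loops share anchors, and every partnered loop has KO-labelled anchors at both ends by the rule.

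Tags were nearly alike in both kinds, with a median of 15 (quartiles 12 and 23, highest 354) for the loops alone and 16 (12 and 26, highest 370) for partnered loops. Anchors were also close in width, with medians of 5.0 kb and 5.26 kb, and 15.0% of the anchors of loops alone were 10 kb or wider, against 17.0%. Of the 4396 anchors of loops alone, 41.0% held a gene start, 33.0% lay in a gene body without one and 26.1% lay outside annotated genes. The shares for the 2916 anchors of partnered loops were 67.3%, 19.1% and 13.6%. Both anchors lay in the same gene in 32.2% of loops alone and 24.0% of partnered loops. The authors' false discovery rate was 0.01 or lower for 66.6% of loops alone and 71.8% of partnered loops, and above 0.05 for 14.4% and 9.74%.

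**Figure D1:**
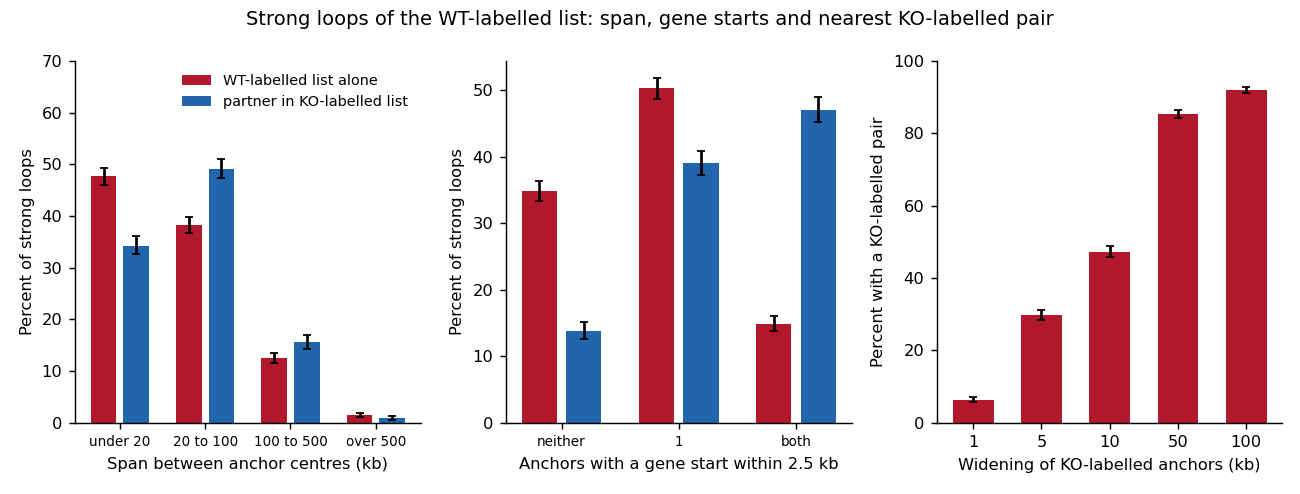
Percent of strong loops of the WT-labelled list by distance between anchor centres (left) and by anchors with a gene start (middle), for loops alone (red) and loops with a partner (blue), and percent of loops alone that gain a pair when KO-labelled anchors are widened (right). Bars show exact binomial 95% intervals; gene starts at both anchors stand at 14.9% of loops alone against 47.1% of partnered loops.

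Most loops alone were missing 1 end in the KO-labelled list and not both. In 2597 loops (67.2%) 1 anchor overlapped a KO-labelled anchor, in 1017 (26.3%) neither did, and in 252 (6.52%) both did although no row joined them. The KO-labelled list was the larger, with 489409 loops, 977208 tags and 51088 anchors over 173 Mb, against 143451 loops, 407150 tags and 24123 anchors over 92.5 Mb in the WT-labelled list. The nearest KO-labelled pair lay a median of 10.9 kb from a loop alone, taking the larger gap of the 2 ends (quartiles 3.98 and 28.8 kb). Widening the KO-labelled anchors by 5 kb gave 1152 loops (29.8%) a pair, and for 354 of them the widened pairs summed to 10 or more tags. Widening by 50 kb gave 85.4% a pair. Near the tag threshold, 499 of 829 loops with 10 tags had no partner, and of 1107 loops with 9 tags, just outside the rule, 686 had none. Just across the overlap rule, 220 partnered loops had a partner of 1 row with 1 tag. The KO-labelled tags, summed over all partners of a loop, had a median of 7.

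The share of strong loops that stood alone ran from 51.3% on chromosome 17 to 74.0% on chromosome 13 among the autosomes, and was 79.4% on the X chromosome, where 27 of 34 strong loops stood alone. On X the KO-labelled list had 582 anchors and the WT-labelled list 545, against 51088 and 24123 over all chromosomes. Loops over 500 kb numbered 58 (1.5%), against 24 partnered ones (0.885%). Chromosome 13 held 15 of these long loops, with 506 tags in all, and chromosome 4 held 11 with 380 tags, among them anchors at Rex2 and a run of Zfp genes for zinc finger proteins.

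Loops alone came in groups. Joined through shared anchors they formed 1184 groups, of which 604 were single loops, while 225 groups of 5 or more loops held 2324 loops (60.1%). The anchor with the most loops, 18 with 452 tags, lay in the body of Etl4 at chr2:20646980-20677106. Its group held 22 loops, and within its bounds the KO-labelled list had 3 loops with 3 tags, against 152 loops with 902 tags in the WT-labelled list. Etl4 RNA was higher where the list had fewer tags, at 205.8 and 199.8 CPM in KO-labelled libraries, against 104.1 and 101.4 CPM in WT-labelled libraries (log2 fold change 0.98 ± 0.038 SE, adjusted p = 2.1e-17).

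The start of Tgif1, which encodes a repressor in TGF-beta signalling, lay in an anchor with 16 loops and 622 tags. In the bounds of its group the KO-labelled list had 35 loops with 79 tags, against 142 loops with 1386 tags in the WT-labelled list. Tgif1 RNA was 121.9 and 120.4 CPM in KO-labelled libraries, against 116.6 and 117.9 CPM in WT-labelled libraries, a difference that did not pass the test (adjusted p = 0.296). Trim71, a stem cell RNA-binding protein, had 10 loops alone with 328 tags at its start, and no loop of the KO-labelled list at any tag count. Its RNA was 216.7 and 215.8 CPM in KO-labelled libraries, against 252.2 and 259.7 CPM in WT-labelled libraries (log2 fold change -0.24 ± 0.032 SE, adjusted p = 2.7e-07), and its fall was lost when libraries were scaled by size alone (log2 -0.033).

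The group with the most loops at the Usp7 locus (46 loops, 1164 tags) covered a stretch in which the KO-labelled list had 103 loops with 184 tags, against 405 loops with 2363 tags in the WT-labelled list. Usp7, a deubiquitinase, had 404.9 and 399.6 CPM in KO-labelled libraries, against 601.5 and 592.5 CPM in WT-labelled libraries (log2 fold change -0.57 ± 0.026 SE, adjusted p = 7.78e-16). The group with the most anchors, 30, joined 40 loops with 807 tags across the replication-dependent histone genes of chromosome 13, with starts of 32 histone genes at its anchors. There the KO-labelled list had 331 loops with 1246 tags, against 729 loops with 3337 tags. Dsg2, a desmosomal cadherin, had 4 loops alone with 69 tags and 1 partnered strong loop with 18 tags. No KO-labelled anchor of a loop came within 2.5 kb of its start. Its RNA fell to 27.3 and 25.6 CPM in KO-labelled libraries, against 107.5 and 107.9 CPM in WT-labelled libraries (log2 fold change -2.03 ± 0.058 SE, adjusted p = 5.15e-20). The genes Etl4, Tgif1, Trim71, Usp7 and Dsg2 were chosen after their loops were seen.

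The loop with the most tags, 354, joined the Mkrn1 start at chr6:39410350-39424914 to chr6:39428712-39456437, 24.9 kb away. Mkrn1 encodes a RING-type ubiquitin ligase. The KO-labelled list had 29 loops with 61 tags at the Mkrn1 start and none at the other anchor. Mkrn1 RNA was 526.2 and 541.7 CPM in KO-labelled libraries, against 471.0 and 472.3 CPM in WT-labelled libraries (log2 fold change 0.18 ± 0.027 SE, adjusted p = 1.76e-06).

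The next loop, with 273 tags over 53.1 kb, ended at Klf9, a KLF-family factor, at chr19:23132057-23156246. The Klf9 start also had 2 partnered strong loops with 56 tags, and 19 KO-labelled loops with 59 tags. Klf9 had 197.4 and 203.9 CPM in KO-labelled libraries, against 125.3 and 127.0 CPM in WT-labelled libraries (log2 fold change 0.67 ± 0.037 SE, adjusted p = 2.14e-14). Loops within gene bodies followed, with 263 tags in Fbxo36 next to Trip12 and 248 tags in Macf1.

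A loop of 238 tags over 18.3 kb joined the start of Adrb3, the beta-3 adrenergic receptor, to that of Eif4ebp1, a repressor of translation initiation. Adrb3 fell to 14.5 and 13.5 CPM in KO-labelled libraries, against 72.2 and 71.6 CPM in WT-labelled libraries (log2 fold change -2.36 ± 0.073 SE, adjusted p = 2.08e-19). Eif4ebp1 fell to 177.3 and 180.2 CPM in KO-labelled libraries, against 450.7 and 455.1 CPM in WT-labelled libraries (-1.34 ± 0.03 SE, adjusted p = 3.28e-22). The RNA at both ends of this loop moved down together. B4galt6, a galactosyltransferase with a 227-tag loop, fell as well (-1.11 ± 0.037 SE, adjusted p = 9.16e-19).

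Mybl2, a cell cycle transcription factor, shared an anchor with Gtsf1l in a loop of 224 tags. Mybl2 RNA was 933.5 and 944.8 CPM in KO-labelled libraries, against 927.2 and 931.9 CPM in WT-labelled libraries, and did not pass the test (adjusted p = 0.58). Gtsf1l fell (log2 fold change -0.79 ± 0.084 SE, adjusted p = 7.67e-09). Ncor1, a nuclear receptor corepressor, had 13 loops alone with 679 tags at its start, 1 of them with 202 tags. It also had 3 partnered strong loops with 222 tags there, and 40 KO-labelled loops with 113 tags. Its RNA fell to 301.3 and 301.1 CPM in KO-labelled libraries, against 506.2 and 485.5 CPM in WT-labelled libraries (-0.72 ± 0.029 SE, adjusted p = 4.05e-17). Bicral, a subunit of a chromatin remodeller, fell by 0.55 on the log2 scale (SE 0.047, adjusted p = 1.25e-10). Both anchors of the loop of rank 8, with 216 tags over 633 kb on chromosome 13 between chr13:65989985-65994888 and chr13:66617707-66632183, lacked any KO-labelled loop, as did those of a loop of 172 tags in Rbpj, the DNA-binding effector of Notch.

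**Figure D2:**
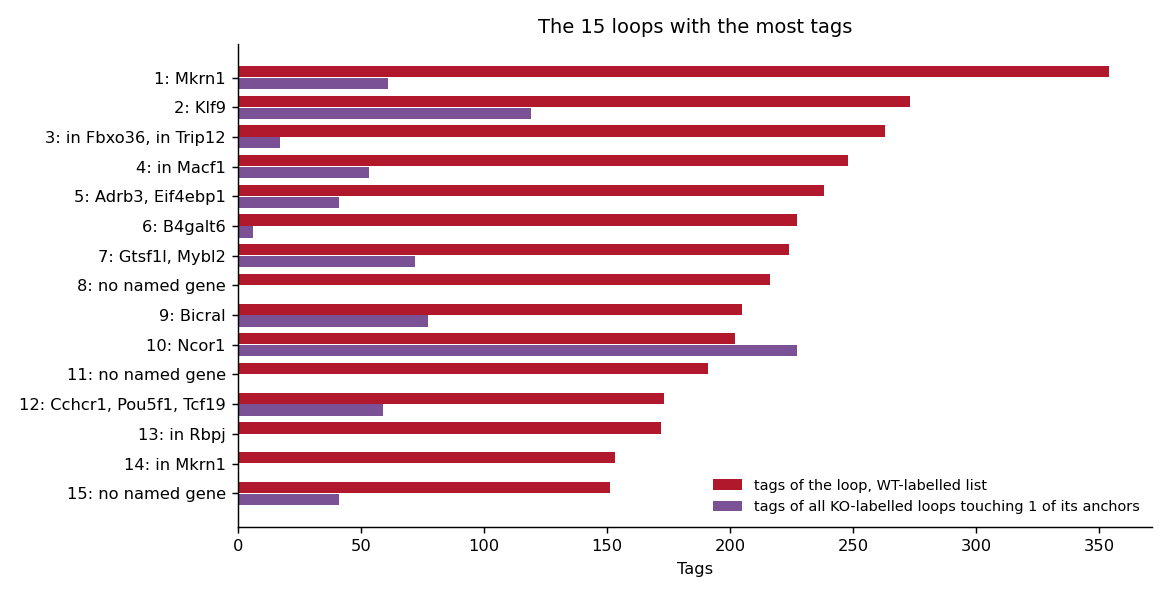
Tags of each of the 15 loops alone with the most tags (red), named by genes that start at or contain an anchor, beside the summed tags of all KO-labelled loops that touch either anchor (purple). The loop at Mkrn1 has 354 tags, and at 4 of the loops no KO-labelled loop touches either anchor.

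Many genes of naive and core pluripotency stood at these loops. Of 48 listed genes, 30 (62.5%) had a start at a loop alone, against 10.7% of the 14832 genes that were both annotated and tested in RNA-seq and 6.29% of all 34614 annotated genes. Partnered strong loops held the starts of 19 of the 48 (39.6%), against 14% of the annotated and tested genes, and 15 of the 30 stood at both kinds. The loops at the 30 genes summed to 2838 tags when each gene's loops are added. At 16 of the 30 genes the KO-labelled list had no loop with an anchor within 2.5 kb of the start, at any tag count. Among these, Nanog had 5 and Pou5f1 had 2 partnered strong loops, so KO-labelled loops did overlap their wider anchors. In RNA, 22 of the 30 were lower in KO-labelled libraries, 5 were higher and 3 did not pass the test, with a median log2 fold change of -0.75. Over all 17273 genes tested, 73.0% passed, 35.8% as lower and 37.2% as higher. Over the whole list of 48, loops or not, 30 were lower and 14 higher, with a median of -0.62. Among the 16 genes without a KO-labelled loop at the start 14 were lower and 2 higher, and among the other 14 genes 8 were lower and 3 higher.

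Pou5f1, the POU factor OCT4 at the centre of the network, had 6 loops alone with 268 tags and 2 partnered strong loops with 57 tags. The strongest, 173 tags, joined an anchor at its start (chr17:35495390-35515889) to one centred 17.2 kb away at chr17:35483597-35493222. At the gene start itself the KO-labelled list had no loop, against 60 loops with 458 tags in the WT-labelled list; the same anchor also covers Tcf19 and Cchcr1, whose starts had 33 KO-labelled loops with 59 tags. Pou5f1 RNA fell to 428.8 and 430.2 CPM in KO-labelled libraries, against 834.9 and 846.3 CPM in WT-labelled libraries (log2 fold change -0.97 ± 0.025 SE, adjusted p = 7.51e-21).

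Nanog, the homeobox factor of naive pluripotency, had 6 loops alone with 203 tags. A further 5 strong loops at its start, with 226 tags, did have a KO-labelled partner that overlapped both anchors. No KO-labelled anchor of a loop came within 2.5 kb of the start itself, against 39 loops with 525 tags in the WT-labelled list. Nanog RNA fell to 405.8 and 406.9 CPM in KO-labelled libraries, against 1135.6 and 1142.8 CPM in WT-labelled libraries (-1.49 ± 0.024 SE, adjusted p = 7.92e-25). Within 120 kb of the Nanog start the KO-labelled list did have 58 loops with 188 tags, against 102 WT-labelled loops, 18 of them alone with 431 tags. Around Pou5f1 it had 49 loops with 122 tags, against 25 WT-labelled loops, of which 8 were alone with 301 tags.

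**Figure D3:**
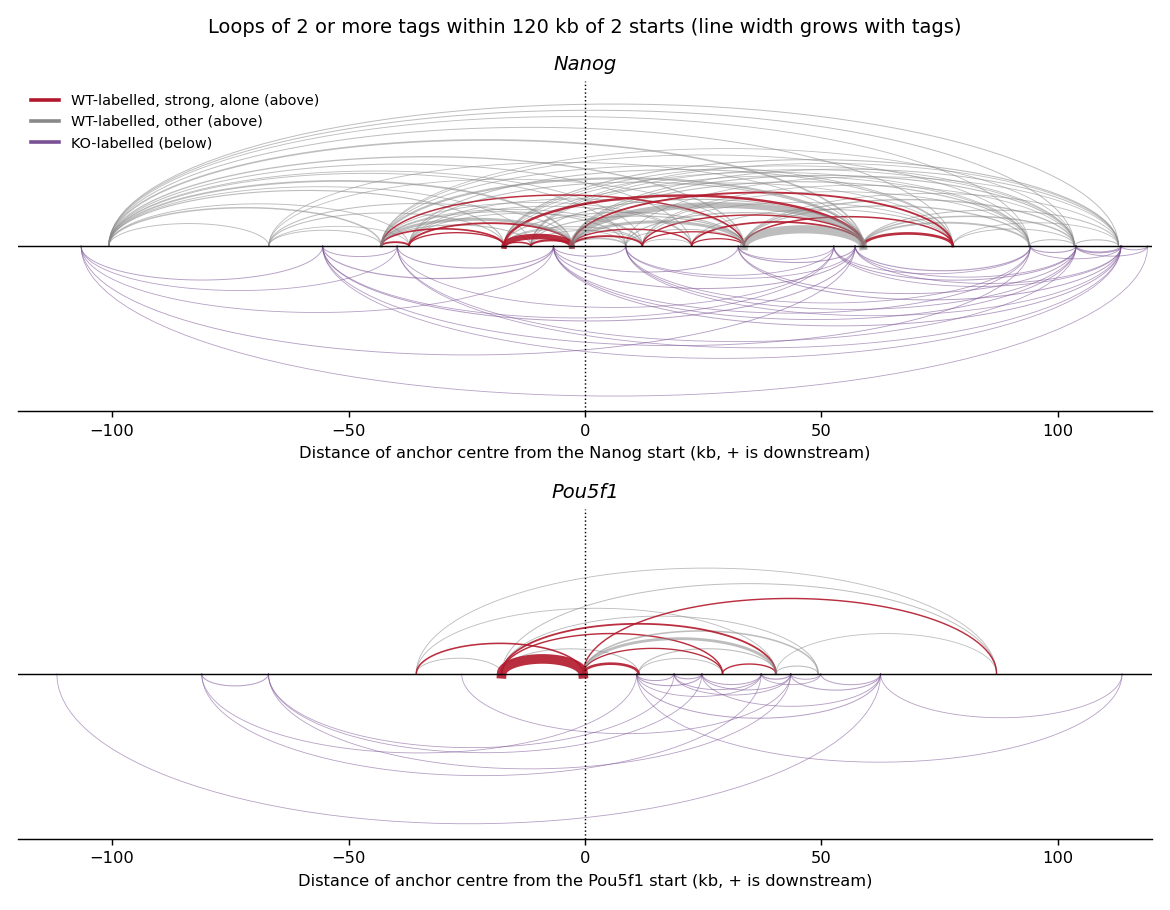
Loops of 2 or more tags whose anchor centres both lie within 120 kb of the Nanog start (top) or the Pou5f1 start (bottom); the x axis is the distance of the anchor centre from the start, arc height grows with the span and line width with the tags. WT-labelled loops run above the line, loops alone in red, and KO-labelled loops below it; the thickest red line, 173 tags, ends at the Pou5f1 start.

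Tbx3, a T-box factor of naive cells, had the most tags of the list, 326 in 6 loops, while the KO-labelled list had 14 loops with 18 tags at its start. It fell to 25.0 and 29.6 CPM in KO-labelled libraries, against 286.2 and 290.3 CPM in WT-labelled libraries (log2 fold change -3.4 ± 0.053 SE, adjusted p = 3.96e-22). Tfcp2l1, another naive factor, had 2 loops alone with 29 tags beside 3 partnered strong loops with 156 tags. At its start the KO-labelled list had 16 loops with 31 tags. Tfcp2l1 RNA fell to 134.8 and 135.0 CPM in KO-labelled libraries, against 1018.0 and 1017.4 CPM in WT-labelled libraries (-2.92 ± 0.028 SE, adjusted p = 2.51e-29). Zfp42 (REX1), a widely used marker of naive cells, had 3 loops with 93 tags and fell to 409.7 and 414.3 CPM in KO-labelled libraries, against 854.6 and 841.1 CPM in WT-labelled libraries (-1.04 ± 0.025 SE, adjusted p = 2.11e-21). For each of the 3 genes both KO-labelled values lay below both WT-labelled values, where 86.3% of all genes tested had groups that did not overlap.

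Sall4, a zinc finger factor, had 7 loops with 160 tags and fell by 1.06 on the log2 scale. Fgf4, the growth factor that drives exit from naive pluripotency through ERK, had 7 loops with 196 tags and fell by 0.42. Spp1, which encodes osteopontin, had 5 loops with 185 tags and fell by 1.92, and Dppa5a, an RNA-binding protein, had 6 loops with 125 tags and fell by 0.68. The starts of these 4 genes had no KO-labelled loop, and the adjusted p of each was 1.91e-11 or lower. Reads of Pou5f1, Nanog, Dppa5a, Rex2 and ribosomal protein genes are uncertain where near-identical copies exist elsewhere in the genome.

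Some list genes went against the majority. Utf1, a chromatin-bound factor, had 1 loop with 10 tags and no KO-labelled loop, yet had 364.6 and 359.0 CPM in KO-labelled libraries, against 161.5 and 153.7 CPM in WT-labelled libraries (log2 fold change 1.2 ± 0.033 SE, adjusted p = 2.25e-20). Lefty2, a Nodal antagonist, had 3 loops with 37 tags and was higher too (0.34 ± 0.04 SE, adjusted p = 5.67e-08). Mycn, the N-myc factor, had 3 loops alone with 42 tags beside 1 partnered strong loop with 46 tags and 21 KO-labelled loops with 39 tags. Mycn RNA rose to 281.8 and 280.3 CPM in KO-labelled libraries, against 114.0 and 113.5 CPM in WT-labelled libraries (1.31 ± 0.034 SE, adjusted p = 7.51e-21).

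Sall1 and Klf2 rose as well, by 2.16 and 0.5 on the log2 scale, and both had loops in the KO-labelled list. Sox2, shared by pluripotent and neural progenitor cells, had 3 loops alone with 65 tags beside 54 KO-labelled loops with 223 tags. Its RNA was 438.0 and 473.0 CPM in KO-labelled libraries, against 542.3 and 529.1 CPM in WT-labelled libraries (-0.23 ± 0.032 SE, adjusted p = 9.16e-07), a call lost with scaling by library size alone (-0.024). Jarid2, a Polycomb cofactor, had 6 loops alone with 204 tags beside 1 partnered strong loop with 205 tags and 33 KO-labelled loops with 62 tags. Its RNA did not pass the test, at 325.8 and 318.1 CPM in KO-labelled libraries against 324.3 and 327.2 CPM in WT-labelled libraries (adjusted p = 0.612).

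**Figure D4:**
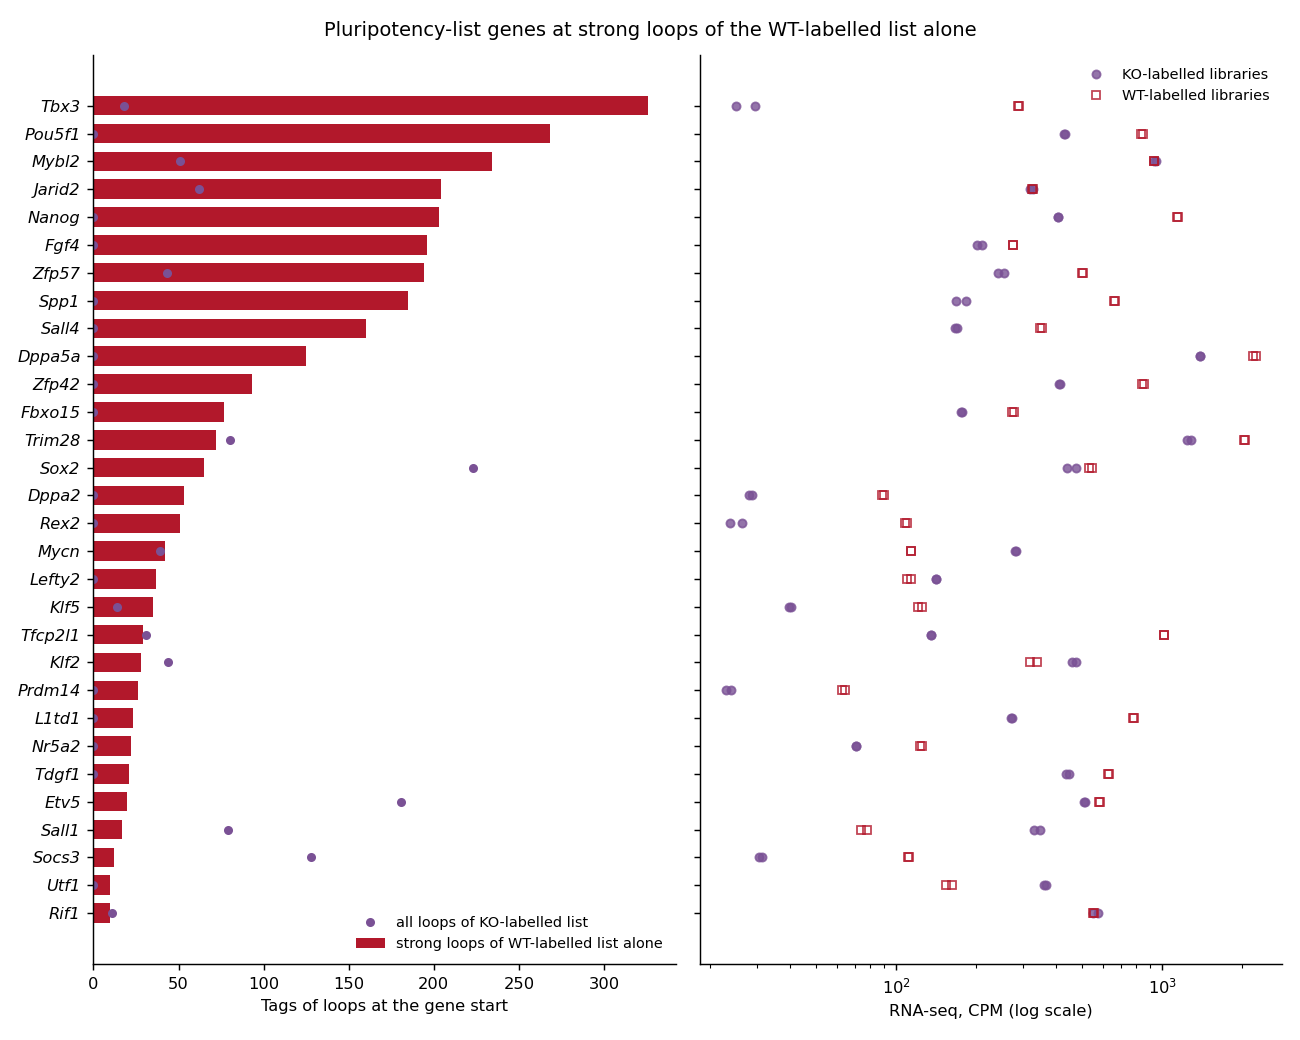
The 30 pluripotency-list genes with a start at a loop alone, in order of tags: tags of loops alone (red bars) and of all KO-labelled loops (purple points) at the start (left), and CPM in the KO-labelled (filled) and WT-labelled (open) libraries on a log scale (right). Purple points sit at 0 for 16 genes, and Tbx3 has the most tags, 326.

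For the other listed groups, shares stand beside 10.7% of annotated and tested genes at loops alone and 14% at partnered strong loops. Counts of lower and higher genes stand beside 35.8% lower and 37.2% higher over all genes tested. Polycomb and DNA methylation genes stood at loops alone in 14 of 31 cases (45.2%) and at partnered strong loops in 10 (32.3%). Of the 14, 9 were lower, 3 higher and 2 not called, with a median of -0.37, against 14 lower and 10 higher over the whole list. Tet2, a dioxygenase that oxidises methylcytosine, had 3 loops with 173 tags and fell to 36.0 and 33.1 CPM in KO-labelled libraries, against 157.9 and 152.9 CPM in WT-labelled libraries (log2 fold change -2.17 ± 0.051 SE, adjusted p = 1.06e-21). Mtf2 and Aebp2, accessory subunits of PRC2, fell by 0.92 and 0.96 on the log2 scale. Ribosomal protein genes stood at loops alone in 15 of 32 cases (46.9%), with 8 higher, 3 lower and a median of 0.06, and at partnered strong loops in 18 (56.2%). Over the whole list 14 were higher and 9 lower. Cell cycle and glycolysis genes stood at loops alone in 14 of 42 cases (33.3%), with 9 lower and 3 higher, and at partnered strong loops in 19 (45.2%). Over the whole list 35 were lower and 5 higher. Ccnd3, a D-type cyclin with 8 loops alone and 170 tags, fell by 0.83. Its start also had 6 partnered strong loops with 93 tags, and 93 KO-labelled loops with 300 tags.

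Of 20 genes for CTCF, cohesin and loop factors, 5 stood at loops alone (25.0%), 1 of them higher and 2 lower, and 4 at partnered strong loops. Rad21, 1 of the 2 lower, did not pass with DESeq2 (-0.062) or with a replicate term (-0.067). Over all 20 genes, 8 were higher and 7 lower. Genes for RNA polymerase II and Mediator stood at loops alone in 4 of 56 cases (7.14%), against 10.7% of annotated and tested genes. They stood at partnered strong loops in 11 cases (19.6%), against 14%. Of the 4, Polr2a, the largest polymerase subunit, fell to 204.1 and 195.1 CPM in KO-labelled libraries, against 445.9 and 460.6 CPM in WT-labelled libraries (-1.18 ± 0.031 SE, adjusted p = 1.13e-20). Of the 55 tested polymerase II and Mediator genes, 44 were lower and 8 higher, where 35.8% of all genes tested were lower and 37.2% higher. The Wnt and ERK response list had 4 of 35 genes at loops alone (11.4%), 3 of them lower and 1 higher. It had 9 at partnered strong loops (25.7%). Over all 35 genes of that list the direction was the other way, with 20 higher, 13 lower and a median of 0.63.

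The shares of lineage genes at loops alone stand beside 10.7% of annotated and tested genes and 6.29% of all annotated genes. The list for neural progenitors had 3 of 41 genes there (7.32%), namely Hes1 and Notch1 of the Notch pathway and the RNA-binding protein gene Msi2, and Sox1, Pax6 and Nes had none. Notch1 rose to 87.8 and 88.3 CPM in KO-labelled libraries, against 45.8 and 42.3 CPM in WT-labelled libraries (log2 fold change 1.0 ± 0.057 SE, adjusted p = 5.08e-14), and had 95 KO-labelled loops beside 1 loop alone. Primed and formative epiblast genes stood at loops alone in 3 of 26 cases (11.5%), mesoderm, muscle, matrix and fibroblast genes in 2 of 37 (5.41%), and endoderm and trophoblast genes in 1 of 26 (3.85%). Foxd3 and Nodal, of the primed list, had 4 loops with 133 tags and 3 loops with 89 tags, and no KO-labelled loop; Nodal fell by 0.59 (adjusted p = 2.04e-10). No test compares these lists, whose membership at loops is a description.

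In all, 2177 annotated genes had a start at a loop alone. Of these 1747 were in the count files and 1585 passed the filter on low counts, a filter that favours genes expressed in either group. Among the 1585, 974 (61.5%) were lower and 335 (21.1%) higher in KO-labelled libraries, with a median log2 fold change of -0.422, against 35.8% lower, 37.2% higher and a median of 0.026 over all genes tested. Falls of 2-fold or more made up 23.1% of the anchor genes and 11.4% of all genes. Scaling by library size alone moved the median of all genes to 0.24 and that of anchor genes to -0.21, with 809 anchor genes lower and 462 higher, against 4788 lower and 7816 higher of all genes. P-values rest on the spread between 2 libraries of a label.

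The lower share was 61.2% (median -0.403) for the 798 genes at loops alone only and 61.8% (median -0.436) for the 787 also at partnered loops. Genes at partnered loops only, 1285 in number, were lower in 51.9% and higher in 27.2% of cases, with a median of -0.238. Genes at strong loops of the KO-labelled list alone, 2050 tested, were higher in 44.8% and lower in 33.9% of cases, with a median of 0.159. The lower share was 65.0% (median -0.533) for the 649 genes at loops alone of 20 or more tags, and 69.5% (median -0.829) for the 141 genes at loops of 50 or more tags. Of the 2177 genes, 398 (18.3%) had no KO-labelled loop at the start at any tag count. The filter on low counts kept 183 of them, of which 69.9% were lower and 49.2% lower by 2-fold or more. It kept 1402 of the 1779 genes with a KO-labelled loop at the start, of which 60.3% were lower and 19.7% lower by 2-fold or more. A gene quiet in KO-labelled libraries passes the filter only through WT-labelled ones. The lower shares are therefore not on equal terms, and the part of the filter in them was not tested. These sets overlap and were not tested against each other.

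**Figure D5:**
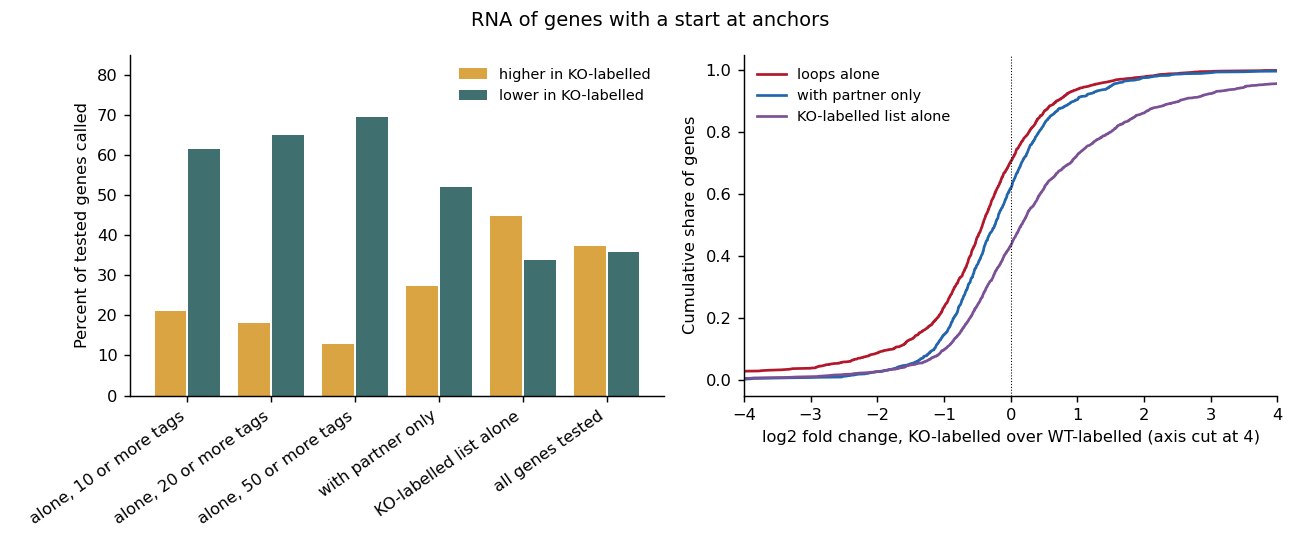
Percent of tested genes called higher or lower in KO-labelled libraries for genes at loops alone by tag minimum, at partnered loops only, at strong loops of the KO-labelled list alone and for all genes tested (left), and the cumulative share of genes by log2 fold change of KO-labelled over WT-labelled libraries (right). The lower share is 61.5%, 65.0% and 69.5% for the minimums of 10, 20 and 50 tags, and 35.8% for all genes.

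The largest falls among genes at loops alone, by the rule used to name them, were in genes of varied roles. Cidea, a lipid droplet protein with a loop of 54 tags, had 0.0 and 0.0557 CPM in KO-labelled libraries, against 23.9 and 19.7 CPM in WT-labelled libraries. Aurkc, an Aurora kinase of germ cells, had 1.57 and 1.9 CPM in KO-labelled libraries, against 84.2 and 82.9 CPM in WT-labelled libraries (log2 fold change -5.58 ± 0.1 SE, adjusted p = 4.46e-24). Calcoco2, an autophagy receptor, had 3.27 and 3.54 CPM in KO-labelled libraries, against 139.0 and 140.3 CPM in WT-labelled libraries (-5.36 ± 0.075 SE, adjusted p = 3.65e-26). Aurkc and Calcoco2 had no KO-labelled loop at their starts. Eif4e1b, an oocyte form of a translation initiation factor, had 0.0292 and 0.0 CPM in KO-labelled libraries, the first from 1 count, against 8.71 and 10.1 CPM in WT-labelled libraries. Accsl, Ankrd45, Slc51a, Adgrg6 and Sh2d4b, also among the largest falls, stood at log2 fold changes from -6.69 to -5.16. At their starts Slc51a and Sh2d4b had no KO-labelled loop either. Accsl had 67, Cidea 26, Eif4e1b 12, Ankrd45 5 and Adgrg6 3.

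The largest rises were smaller. Sgce, which encodes epsilon-sarcoglycan and is imprinted, had 50.5 and 49.9 CPM in KO-labelled libraries, against 1.74 and 1.77 CPM in WT-labelled libraries (log2 fold change 4.84 ± 0.12 SE, adjusted p = 2.31e-21), with 1 loop alone of 11 tags. Pdk1, a kinase that restrains pyruvate dehydrogenase, had 435.0 and 447.7 CPM in KO-labelled libraries, against 95.4 and 89.0 CPM in WT-labelled libraries (2.26 ± 0.036 SE, adjusted p = 4.38e-25). Lrrc31 had 39.9 and 40.0 CPM in KO-labelled libraries, against 6.72 and 5.16 CPM in WT-labelled libraries (2.74 ± 0.11 SE, adjusted p = 7.34e-17), and no KO-labelled loop at its start. Of the other 7, Prkar1b, Msh5, Zbtb4, Plekhg2, Gprc5c, Loxl1 and Zfp36, every one had 44 or more KO-labelled loops at its start.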

How the data were processed

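Of 26 samples, the 4 RNA-seq libraries and 4 HiChIP samples of day 12 were used; ChIP-seq samples were not. The authors deposited RNA-seq as unnormalised counts by gene symbol, a file for each library. HISAT2 2.1.0, featureCounts 2.0.3, DESeq2 1.18.1, Bowtie2 2.4.4, MACS2 2.2.7.1 and HiC-Pro 2.11.1 are named, with mm10, by the submitters' processing notes. The count files end in rows of htseq-count form, so the counter is not settled. The annotation and strand setting are not stated, and an antisense or overlapping gene may share reads with its neighbour. Rows without a gene name, 5 per file and 20.4% to 22.5% of column totals, were left out. Gene counts were 31909094 and 33347088 in KO-labelled libraries and 37703866 and 29835774 in WT-labelled libraries, where 3 counts are 0.0836 to 0.108 CPM.

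The loop lists, deposited by the authors, hold a tag count per anchor pair and its q-value (false discovery rate). The loop caller is not given in the sources used here. Anchors were called per list, so overlap depends on where each list placed them.

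Gene starts came from RefSeq (GRCm38.p6) for 27025 genes with a promoter entry; for 7589 genes both ends were used. A gene was at an anchor within 2.5 kb. Of 17273 tested genes, 85.9% matched a RefSeq gene. Counts were filtered (filterByExpr), scaled (TMM) and tested with edgeR 4.0.16 (glmQLFit, robust, and glmQLFTest, two-sided) in R 4.3.3, KO-labelled over WT-labelled, with Benjamini-Hochberg adjustment over all genes tested and a threshold of 0.05. CPM values use TMM-scaled sizes. Both steps were tested on simulated data. Loop members, gene lists and naming rules were chosen with earlier results of these data known. Named genes were those at the 15 loops with the most tags, the 10 largest called rises and falls of at least 5 CPM with groups that do not overlap, the 4 list members with the most tags, label checks, and the pluripotency list at loops; single results of some genes that meet these rules are not reported here. Alternatives were tag minimums, anchor widening, false discovery rate, gene start windows, scaling, filter, DESeq2 1.42.0, a replicate term and leaving out each library.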

Additional observations from a re-analysis of the deposited data

How the results depend on the processing

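The count of 3866 loops alone followed the tag minimum, at 10484 with 5 tags and 1314 with 20 tags, and their median span was then 37.7 kb and 17.5 kb. The share with both anchors on KO-labelled anchors was 9.31% with 5 tags, 4.34% with 20 tags and 8.07% with KO-labelled anchors widened by 1 kb. The count was 3620 after widening by 1 kb, 2714 after 5 kb, 3813 of 4519 strong loops (84.4%, against 58.8%) at a false discovery rate of 0.01 or lower in both lists, and 4132 against KO-labelled loops of 2 or more tags. At loops of 20 or more tags 539 anchor genes were called, 117 higher and 422 lower. Leaving out 1 library gave 11683 to 12273 calls over all genes and 1262 to 1277 over anchor genes, and DESeq2 gave 11515 and 1243. The replicate numbers did not pair the libraries (correlation of deviations 0.0153 for equal numbers), and a fit with a replicate block gave 12410 calls over all genes, of them 6298 higher and 6112 lower, and 1299 over anchor genes, of them 332 higher and 967 lower.

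Of the named genes' changes under 9 alternatives, 897 kept direction and call. With library size alone the log2 change turned positive for Jarid2 (0.19), Hes1 (0.18, adjusted p = 0.0288), Rad21 (0.14), Tfap2c (0.044), Etv5 (0.018) and Foxd3 (0.0056), and Mybl2 (0.22) and Tgif1 (0.26) passed the test; that scaling moved the median of all genes up to 0.24. Of changes that did not pass in the fit with all libraries, sign turned for Hes1 (-0.089 to 0.02 over leaving out 1 library), Pds5a (-0.0088 without the filter, -0.0099 to 0.00092 over leaving out 1 library) and Rif1 (-0.0078 to 0.055 over leaving out 1 library, past the test at 0.055, adjusted p = 0.0451, without KO-labelled replicate 2). The lists have no replicates, and their depth limits what a missing partner shows: 65.6% of KO-labelled and 58.7% of WT-labelled loops had 1 tag.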
